A study of Homo sapiens with 17 samples.

Results

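The regions described here are the H3K36me3 peaks that the authors called in UTX knockout neurons and that overlapped no wild-type H3K36me3 peak by 1 bp or more. On chromosomes 1 to 22 and X, 4677 of the 8937 peaks of the knockout (KO) list met this rule, or 52.3%, and they are called KO-only peaks below. They were thus chosen by the measured peak calls of both genotypes. The other 4260 KO peaks were shared with the wild-type (WT) list, which held 30144 peaks. The cells were neurons grown to day 40 from H9, an established human embryonic stem cell line, through embryoid bodies and rosettes of neural progenitors, in a final medium with BDNF, GDNF, dibutyryl-cAMP and ascorbic acid. WT H9 cells were set beside lines KO1 and KO2, which the labels give as UTX knockouts. UTX is the product of KDM6A. RNA-seq covered 3 WT, 3 KO1 and 2 KO2 libraries, with 17.4 to 31.5 M estimated counts each. Chromatin immunoprecipitation of H3K36me3 covered 1 sample of each line, but each genotype had 1 peak list, so no peak count has a replicate check.

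The lists differed in depth and in a setting of the caller. Per the file headers, the KO list rested on 44.3 M tags and the WT list on 22.5 M, and the fragment length d, which is also the shortest peak, was 200 bp for KO and 269 bp for WT. The labels and headers do not say whether KO1 and KO2 reads were pooled in the KO list. The part of depth, d and antibody yield in the peak differences was not tested. The rule used both lists, so every comparison of KO-only peaks with shared or WT peaks below is a description with no test. KDM6A RNA, counted over the whole gene, was 36, 35.9 and 35.2 CPM (counts scaled to a common library total) in WT, 40.8, 30.1 and 34.1 CPM in KO1, and 25.9 and 33.9 CPM in KO2. These ranges overlapped, so the gene's count did not separate the genotypes, and the labels do not give the sequence change in the KO lines. KDM6A itself held no H3K36me3 peak in either list.

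Trimethylation of lysine 36 of histone H3 is laid down by SETD2, which travels with elongating RNA polymerase II. The mark therefore covers the bodies of transcribed genes and usually builds up towards their 3′ ends, and readers such as DNMT3B and the PSIP1 protein bind it there. UTX removes methyl groups from lysine 27 of the same histone, not from lysine 36, and H3K27me3 marks chromatin held silent by Polycomb complexes.

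Few H3K36me3 peaks of any class reached a start site. RefSeq promoter windows took in 250 bases before and 50 bases after a gene's start on GRCh38.p14. They were met by 0.278% of KO-only, 0.329% of shared KO and 0.597% of WT peaks. Only 13 windows overlapped a KO-only peak. The upstream 250 bases of 4 of these windows are shown. They hold the longest KO-only peak (EEF1A1) and a start whose 250 upstream bases all lie in a peak (FKBP11). The others are a start in a gene with no WT peak (CLSPN-AS1) and a window beside a WT peak (LOC124909409). Bases inside the KO-only peak are in capitals, each sequence runs 5′ to 3′ on the gene's strand, and the sequences are from RefSeq.
EEF1A1, chr6:73521033-73521282, minus strand: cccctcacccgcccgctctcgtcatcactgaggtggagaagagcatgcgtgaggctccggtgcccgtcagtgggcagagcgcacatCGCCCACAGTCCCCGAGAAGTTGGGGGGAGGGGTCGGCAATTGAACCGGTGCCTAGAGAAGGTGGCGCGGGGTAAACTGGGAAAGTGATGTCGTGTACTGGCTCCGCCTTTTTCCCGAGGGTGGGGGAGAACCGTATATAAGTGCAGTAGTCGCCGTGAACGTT
FKBP11, chr12:48924989-48925238, minus strand: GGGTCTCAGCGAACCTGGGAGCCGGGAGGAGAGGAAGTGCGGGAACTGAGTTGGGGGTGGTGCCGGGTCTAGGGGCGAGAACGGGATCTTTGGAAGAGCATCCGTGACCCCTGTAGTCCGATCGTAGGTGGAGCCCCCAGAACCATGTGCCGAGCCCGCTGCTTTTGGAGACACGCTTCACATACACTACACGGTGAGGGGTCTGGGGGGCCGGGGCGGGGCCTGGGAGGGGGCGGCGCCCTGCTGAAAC
CLSPN-AS1, chr1:35739195-35739444, plus strand: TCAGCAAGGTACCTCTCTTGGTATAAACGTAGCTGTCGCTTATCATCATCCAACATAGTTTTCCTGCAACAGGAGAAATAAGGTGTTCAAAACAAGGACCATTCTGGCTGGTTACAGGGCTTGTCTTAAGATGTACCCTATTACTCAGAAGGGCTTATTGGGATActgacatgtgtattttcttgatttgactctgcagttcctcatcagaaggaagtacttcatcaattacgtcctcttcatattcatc
LOC124909409, chr3:113268300-113268549, minus strand: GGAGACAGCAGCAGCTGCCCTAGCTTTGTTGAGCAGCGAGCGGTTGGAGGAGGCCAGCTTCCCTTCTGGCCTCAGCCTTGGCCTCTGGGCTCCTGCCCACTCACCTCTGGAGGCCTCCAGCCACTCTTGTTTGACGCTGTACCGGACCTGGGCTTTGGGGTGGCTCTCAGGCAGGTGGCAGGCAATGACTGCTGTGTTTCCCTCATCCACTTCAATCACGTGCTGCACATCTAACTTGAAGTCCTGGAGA

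The EEF1A1 peak took in the 3′ part of its window and ran on into the gene, while the CLSPN-AS1 peak took in the 5′ part and ended before the start. Of the 13 windows, 3 held TATAAA, 2 held CCAAT and 3 held GGGCGG on either strand, against 10.7%, 32.0% and 42.7% of all 34961 windows. CLSPN-AS1 was among those with TATAAA and with CCAAT, and FKBP11 and EEF1A1 were among those with GGGCGG. KO-only peaks also overlapped 4 miRNA hairpins, of MIR198, MIR1248, MIR1282 and MIR6777. The mature sequences that lay inside a peak are shown, with the seed in capitals, because polyA RNA does not report them.
hsa-miR-198, chr3:120395703-120395724: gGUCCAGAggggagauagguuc
hsa-miR-6777-5p, chr17:17813518-17813540: aCGGGGAGucaggcaguggugga
hsa-miR-6777-3p, chr17:17813480-17813499: uCCACUCUccuggcccccag
These miRNAs have different seeds, and the miR-198 peak, at chr3:120395638-120395863, had a fold enrichment over the control of 4.70.

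KO-only peaks were short and of modest height. Their median length was 241 bp, with a longest peak of 1125 bp, against 276 bp for shared KO peaks and 382 bp for the WT list. All fold enrichments and q-values here are the authors' own. The median fold enrichment was 4.18 in KO-only peaks and 4.21 in shared KO peaks, and the median −log10 q was 4.16 and 4.52. A −log10 q of at least 5 was reached by 27.7% of KO-only and 36.3% of shared KO peaks. Peaks at the edge of the rule looked alike on either side of it. The 36 KO-only peaks within 10 bp of a WT peak had a median fold of 4.02, and the 46 shared peaks that overlapped WT by at most 10 bp had 4.13. Directly next to a WT peak lay the KO-only peaks in ZNF608 and in PDZD2 with LOC105374711, and shared peaks in FBXO28, TLE3, ZKSCAN7 and BOC overlapped by 1 bp.

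Most KO-only peaks lay near a WT peak. The distance to the nearest WT peak had a median of 1813 bp, with 143 bp at the 10th percentile and 38817 bp at the 90th. It was at most 1 kb for 38.2% of KO-only peaks and over 10 kb for 22%. For peaks in at least 1 gene that held a WT peak as well, the median distance was 1354 bp. For peaks only in genes with none it was 95333 bp. The 127 KO-only peaks outside any gene span had a median of 2209 bp.

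**Figure D1:**
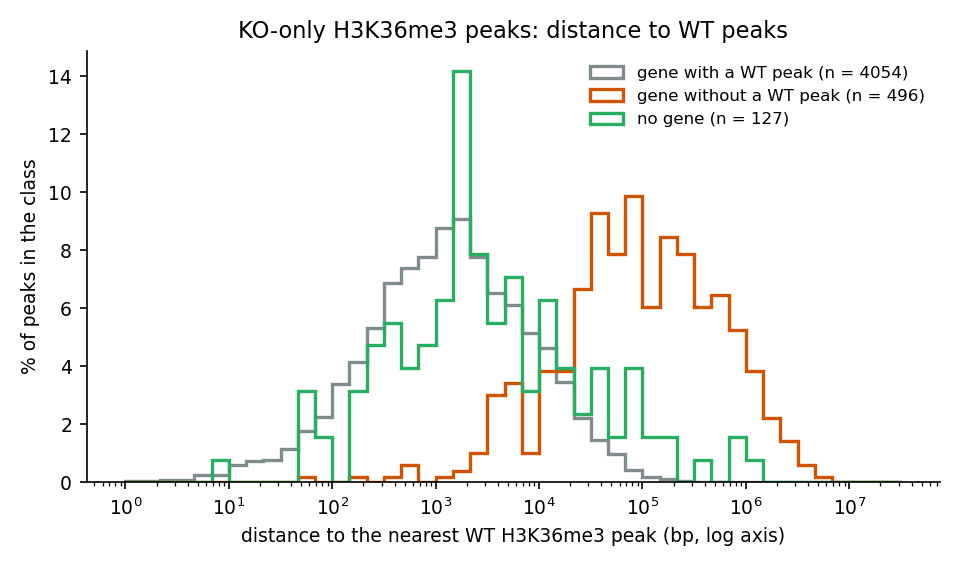
Distance from each KO-only H3K36me3 peak to the nearest WT peak (bp, log axis), as the percent of peaks in each of 3 classes. Peaks in at least 1 gene with a WT peak centre near 1354 bp and peaks only in genes without one near 95333 bp.

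Along the gene, KO-only peaks stood slightly further 5′ than the other H3K36me3 peaks. Positions were taken for peaks in just 1 protein-coding gene of known strand with a span of at least 5 kb, whatever other genes they met. The median position from 5′ to 3′ was 63.6% of the span for 3634 KO-only peaks. It was 68.0% for 3259 shared KO peaks and 70.2% for 20224 WT peaks with no KO overlap. The last 10% of the gene held 15.3% of KO-only peaks, 18.5% of shared peaks and 20.1% of these WT peaks. The first 10% held 3.11%, 1.87% and 2.36%. Every class thus leaned to the 3′ part of genes. Of the 3634 KO-only peaks, 3253 had a WT peak in the same gene. Among these 3253, 59.8% had WT peaks on both sides, 17.8% on the 5′ side only and 22.4% on the 3′ side only.

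**Figure D2:**
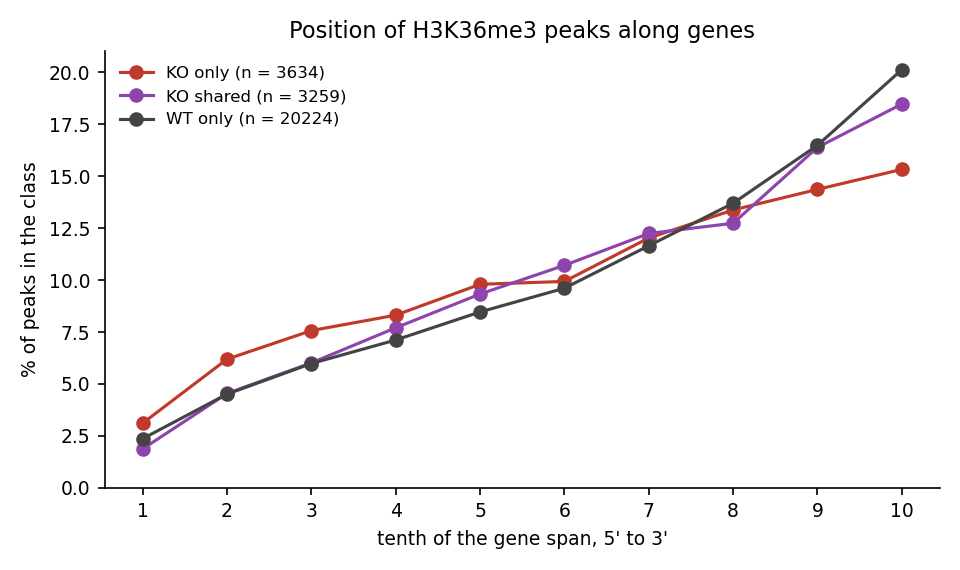
Percent of peaks in each 10% of the gene span from 5′ to 3′, for KO-only, shared KO and WT-only H3K36me3 peaks. All 3 curves climb to the last 10%, where KO-only peaks stand at 15.3% and WT-only peaks at 20.1%.

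The share of KO peaks with no WT overlap varied by chromosome. It was lowest on chromosome 19, at 32.7% of 935 KO peaks, and it was 42.5% on chromosome 22, 44.1% on 17 and 44.9% on 16. It was highest on chromosome 2, at 70.3% of 488, followed by 68.9% on 13 and 66.5% on 4. Chromosome 19 held 11.2% of the WT list and 6.54% of KO-only peaks.

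**Figure D3:**
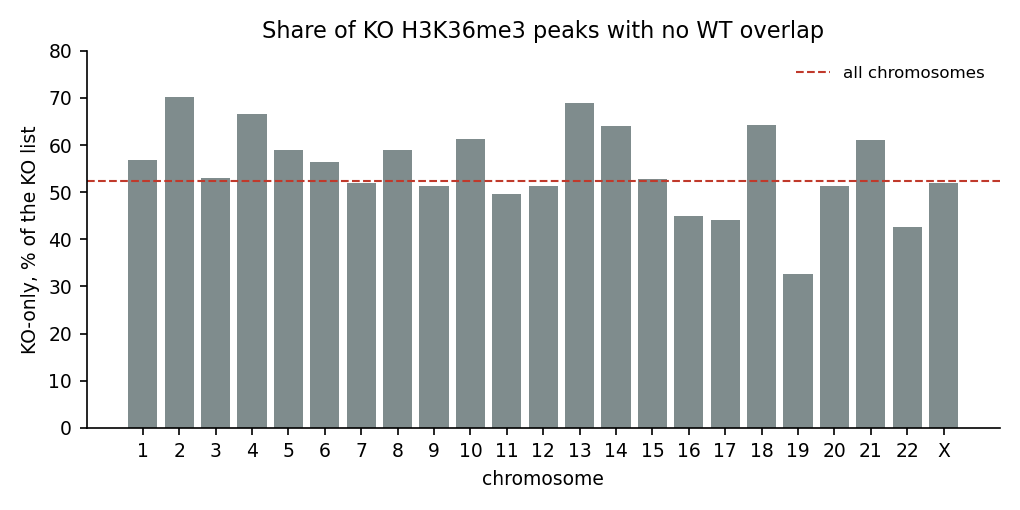
KO-only peaks as a percent of the KO H3K36me3 list on each chromosome, with the share over all chromosomes (52.3%) dashed. Chromosome 19 is lowest at 32.7% and chromosome 2 highest at 70.3%.

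The highest KO-only peak lay in SUPT16H, a subunit of the FACT histone chaperone that moves with the polymerase, at chr14:21351718-21351947 with a fold of 6.75. SF3B4, a splicing factor subunit, followed at 6.54. MDM2, the ubiquitin ligase of p53, PPP4R1, a phosphatase regulator, and CANX, a chaperone of the endoplasmic reticulum, each had 6.31. MYH9, a non-muscle myosin heavy chain, had 6.28, KPNA1, an importin, 6.23 and CLK1, a kinase of splicing factors, 6.19. The KPNA1 peak also lay in WDR5B-DT. DDB1, a subunit of a ubiquitin ligase, and TMEM265 each had 6.08. Of the genes of these 10 peaks, only TMEM265 held no WT peak. The distances from these peaks to WT ran from 43 bp in PPP4R1 to 9734 bp in KPNA1.

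The longest KO-only peak lay at the start of EEF1A1, the translation elongation factor, at chr6:73520072-73521196. It was 1125 bp long, with a fold of 3.98, and its nearest WT peak was 546 bp away. ZNF557, a zinc finger gene of chromosome 19, held one of 1075 bp and SRSF3, a splicing factor, one of 934 bp that lay 15 bp from a WT peak. DDX17, an RNA helicase, held one of 902 bp, WDR82, a partner of the polymerase and of SETD1 complexes, one of 863 bp and PCBP2, an RNA-binding protein, one of 857 bp. YLPM1 (792 bp) and LEMD2 (786 bp) completed the 8 longest. All 8 of these genes held a WT peak too.

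In all, 4550 KO-only peaks, or 97.3%, lay in a gene span, 422 of them in more than 1. They fell in 2944 genes, of which 2450, or 83.2%, also held a WT H3K36me3 peak elsewhere in the span. Among the 4144 genes with any KO peak, shared or not, 87.9% held a WT peak. By peaks, 4054 or 86.7% were in at least 1 gene with a WT peak and 496 or 10.6% were only in genes without one. A peak in overlapping genes of both kinds counted among the 4054. The genes with peaks of each kind held a median of 4 WT peaks, 440 of them held exactly 1 and 475 held 10 or more. In most of them the KO-only peak was the sole one, since 1441 of the 2450 held 1 and 114 held 5 or more. Large genes with many WT peaks led this group. DYNC1H1, the heavy chain of cytoplasmic dynein, held 14 KO-only peaks beside 37 WT peaks. MACF1, which links actin and microtubules, held 13 beside 37, SMARCC1, a subunit of SWI/SNF remodelling complexes, 13 beside 34, and UBR4, a ubiquitin ligase, 13 beside 50. These 4 genes were chosen after their counts were seen.

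The other 494 genes with a KO-only peak held no WT H3K36me3 peak. They comprised 409 protein-coding genes, 53 long non-coding RNA genes, 8 snoRNA genes, 4 miRNA genes and 20 of other kinds. Of the 494, 408 held 1 KO-only peak, 66 held 2 and 20 held 3 or more. Their protein-coding members had a median span of 38.3 kb, against 44.0 kb for those that held a WT peak as well. Some of the 494 lie within a gene that holds WT peaks, as MIR198 does in FSTL1, which held 8. The 496 peaks that lay only in genes without a WT peak had a median fold of 4.16, close to the 4.18 of the other peaks in genes.

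SMC5, a subunit of the SMC5/6 DNA repair complex, held the most, with 6 KO-only and 0 WT peaks. FUBP1, a single-strand DNA-binding regulator of transcription, UBE2D3, a ubiquitin-conjugating enzyme, PNISR, a serine- and arginine-rich nuclear protein, and CHASERR, a long non-coding RNA beside CHD2, held 4 each. ARGLU1, a splicing regulator, FBXO5, an inhibitor of the anaphase-promoting complex, and CDH2-AS1 held 3 each.

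Each of these genes had RNA in WT neurons except CDH2-AS1, which was not matched to the RNA table. SMC5 stood at 71.9, 61.4 and 79.3 CPM in WT, 79.6, 96.6 and 84.8 CPM in KO1, and 92.0 and 84.5 CPM in KO2. Every KO library was above every WT library, by little, and the edgeR log2 fold change of 0.30 had an adjusted p of 0.26. ARGLU1 stood at 584, 476 and 655 CPM in WT, 409, 366 and 495 CPM in KO1, and 352 and 388 CPM in KO2. Its groups overlapped through KO1 replicate 3, and the edgeR log2 fold change was -0.51 with an adjusted p of 0.24. CHASERR had 75.3 ± 14.4 CPM (SD, n = 3) in WT and 54.4 ± 7.73 CPM (SD, n = 5) in KO, and all means below are given in this way. Its groups overlapped too. UBE2D3 differed little, with 288 ± 11 CPM in WT against 265 ± 18 CPM in KO, and FUBP1 (259 ± 21.5 and 196 ± 51.4 CPM) and PNISR (344 ± 81.6 and 256 ± 54.7 CPM) overlapped between the groups.

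Other genes without a WT peak had high RNA in WT, KO or both. By mean CPM over all 8 libraries, the 5 highest were FBN2, COL11A1, IGFBP5, HMGB1 and NUCKS1. This ranking used the KO values. In WT alone FBN2, COL11A1 and IGFBP5 had means of 75.4, 190 and 136 CPM, below the 572 CPM of ARGLU1. HMGB1, an abundant chromatin protein, stood at 844, 870 and 812 CPM in WT, 752, 446 and 750 CPM in KO1, and 469 and 574 CPM in KO2. All KO libraries were below all WT libraries, with an edgeR log2 fold change of -0.49 and an adjusted p of 0.27. NUCKS1, a chromatin-bound DNA repair factor, had 794 ± 26.8 CPM in WT against 664 ± 66.9 CPM in KO, and its groups did not overlap either.

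FBN2, COL11A1 and IGFBP5 followed a different pattern. Their high KO values took part in the choice of these genes. FBN2, a fibrillin of the extracellular matrix, stood at 70.4, 47.4 and 108 CPM in WT, 205, 2193 and 134 CPM in KO1, and 1319 and 1469 CPM in KO2. COL11A1, a fibrillar collagen chain, stood at 229, 134 and 206 CPM in WT, 329, 2358 and 216 CPM in KO1, and 1076 and 1193 CPM in KO2. IGFBP5, a secreted binding protein of insulin-like growth factors, ranged from 99.0 to 158 CPM in WT and was 299, 2770 and 131 CPM in KO1 and 884 and 1663 CPM in KO2. For all 3, KO1 replicate 2 and both KO2 libraries were far above the rest. The same 3 libraries had COL1A1 at 9226 CPM or more, against 7.65 to 387 CPM in the other 5 libraries, and are called the high-collagen libraries below.

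**Figure D4:**
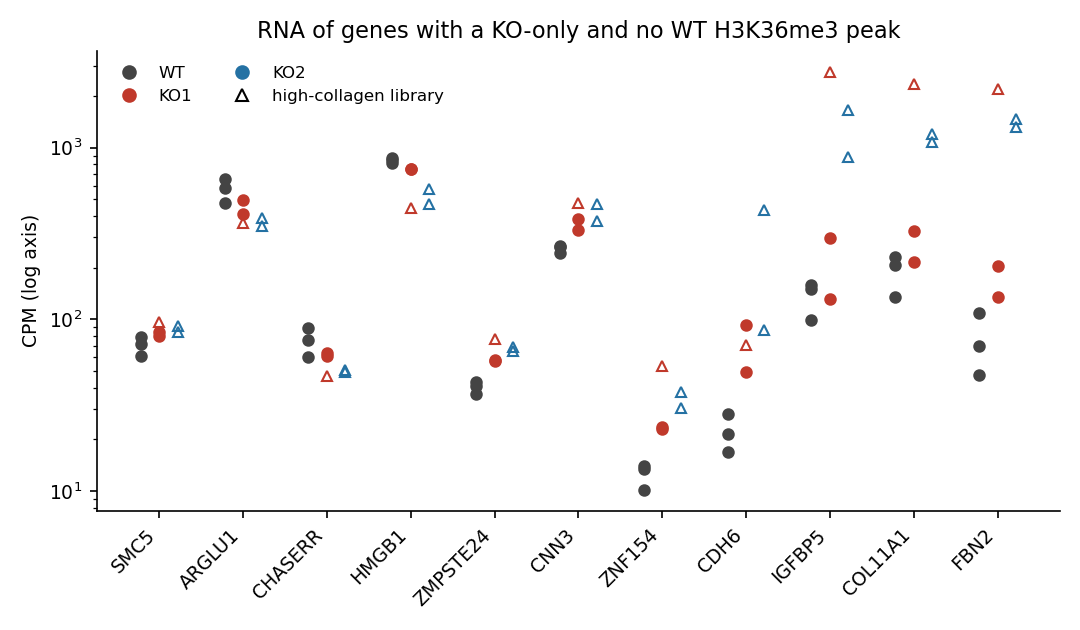
CPM (log axis) of 11 genes with a KO-only and no WT H3K36me3 peak in each library, with the 3 high-collagen libraries as open triangles. FBN2, COL11A1 and IGFBP5 are highest in the triangles, while SMC5, ZMPSTE24, CNN3, ZNF154 and CDH6 lie above WT in every KO library.

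Those libraries stood apart in cell type markers. The 8 mesenchymal markers summed to 44.4 to 1560 CPM in WT, 853 to 1033 CPM in KO1 replicates 1 and 3, and 23863 to 61904 CPM in the high-collagen libraries. The 11 neuron markers summed to 4026 to 5785, 4209 to 5075 and 890 to 2980 CPM, and the 5 progenitor markers to 1513 to 1729, 1644 to 1691 and 241 to 802 CPM, in the same order. The 4 astrocyte markers summed to 2.63 to 14.1, 4.76 to 12.1 and 6.04 to 58.1 CPM. The 3 pluripotency genes summed to 0.284 to 19.7, 3.94 to 11.2 and 0.337 to 3.22 CPM over LIN28A alone, since POU5F1 and NANOG were under the expression filter. The labelled neurons thus had their markers in all 8 libraries. In bulk samples, fewer cells of a type and less RNA per cell cannot be told apart. The part of the marker differences in the RNA results was not tested. None of the 8 mesenchymal markers held an H3K36me3 peak in the KO or the WT list, although their RNA was high in 3 KO libraries.

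Lists of genes named by function were set beside the peaks. Over all genes tested for RNA, 2737 of 18614 held a KO-only peak, and no list was tested against this share. Of 29 genes for H3K36 methyltransferases, demethylases and readers, 17 held a KO-only peak and none of these lacked a WT peak. A WT peak was held by 24 of the 29. SETD2 itself held 2 KO-only peaks beside 1 WT peak, and its RNA was 140 ± 6.78 CPM (SD, n = 3) in WT and 135 ± 5.65 CPM (SD, n = 5) in KO. NSD2, a methyltransferase that makes H3K36me2, held 2 beside 26 WT peaks, and DNMT3A held 1 beside 23. DNMT3B, a DNA methyltransferase that reads the mark, held 1 beside 2, and stood at 46.2, 42.6 and 60.7 CPM in WT, 37.7, 8.64 and 30.7 CPM in KO1, and 12.8 and 17.2 CPM in KO2. Every KO library was below every WT library for DNMT3B, with an edgeR adjusted p of 0.25.

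Of 24 cell cycle genes, 20 held a WT peak and 13 a KO-only peak. CDK1, the mitotic kinase, and BUB1, a spindle checkpoint kinase, held a KO-only peak with no WT peak. CDK1 had 85.1 ± 14.3 CPM in WT against 60.2 ± 13.4 CPM in KO, and BUB1 72.6 ± 12.8 and 44.2 ± 18.4 CPM, with edgeR adjusted p of 0.27 and 0.30. MKI67, a marker of dividing cells, held 3 beside 11 WT peaks and stood at 383, 356 and 410 CPM in WT, 353, 142 and 337 CPM in KO1, and 177 and 229 CPM in KO2, lowest in the high-collagen libraries. Over the 24 genes the median log2 fold change was -0.59 by edgeR, against -0.01 over all genes tested, and -0.18 without the 3 high-collagen libraries. Of 25 pan-neuronal genes, 4 held a KO-only peak (NCAM1, CNTNAP2, CRMP1 and STMN1), each beside a WT peak, and of 24 mesenchymal and matrix genes only VIM and TPM1 did. A WT peak was held by 12 of these 25 genes and 6 of these 24. None of 39 HOX genes held an H3K36me3 peak in either list. Of 27 imprinted genes, 3 held a KO-only peak. SNRPN and SNURF, overlapping genes of the imprinted region of chromosome 15, shared a KO-only peak without a WT peak, and GRB10 held 1 beside 13. A KO-only peak in the nested spans of 16 clustered protocadherin genes of the gamma cluster counted for all 16. Of 808 zinc finger genes, 189 or 23.4% held a KO-only peak and 17 of these had no WT peak. A WT peak was held by 411 of the 808. Among the 585 tested for RNA, 175 held a KO-only peak.

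H3K27me3, mapped in the same lines, almost never met these peaks. Of the 4677 KO-only peaks, 3 overlapped an H3K27me3 peak of the WT list and 5 one of the KO list (0.0641% and 0.107%), against 4 and 9 of the 4260 shared peaks. The 5 were named after they were seen. TP53BP2 and IRX2 overlapped H3K27me3 in the KO list only. The EEF1A1 peak shown above, a peak in HBB, the beta-globin gene, and its intergenic neighbour at chr11:5224933-5225155 overlapped H3K27me3 in both lists. IRX2, a homeobox gene with no WT H3K36me3 peak, had means of 13.1 ± 10.2 CPM (WT) and 13 ± 7.11 CPM (KO). HBB had 0 estimated counts in all 8 libraries, where 3 counts correspond to 0.0952 to 0.173 CPM. TMEM265, with its peak of fold 6.08, had 0 counts in 7 libraries and 0.0634 CPM in KO1 replicate 3. The HBB and TMEM265 peaks thus lay in genes with little or no polyA RNA. Within the gene span, 21 of the 494 genes without a WT H3K36me3 peak held a WT H3K27me3 peak (4.25%), as did 71 of the 2450 with one (2.90%).

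RNA was matched for 2792 of the 2944 genes, and 2737 passed the expression filter, 415 of them without a WT peak. These are genes that passed a filter and not all genes with a KO-only peak. Their median WT level was 46.8 CPM without a WT peak and 82.1 CPM with one. It was 44.9 CPM for genes with a WT peak and no KO-only peak, some with shared KO peaks. Genes with no H3K36me3 peak in either list had 4.74 CPM. A mean of at least 10 CPM was reached by 92.8%, 96.0%, 90.6% and 39.8% of the tested genes of these classes. CPM is not per length, so these levels describe read numbers.

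The RNA of the genes with a KO-only peak differed little between genotypes as a class. The median edgeR log2 fold change of KO against WT was -0.05 over the 2737 genes, 0.01 over the 415 without a WT peak and -0.06 over the 2322 with one, against -0.01 over all 18614 genes. At a Benjamini-Hochberg adjusted p of 0.05, edgeR called 0 genes of this set, and 0.0% of all genes tested. At an unadjusted p under 0.05 it gave 265 higher and 223 lower genes in the set, and 11.5% and 6.45% of all genes. Among the 415 without a WT peak these were 57 and 29. In the fit with 3 groups edgeR called 0 genes of the set in each line. At an unadjusted p under 0.05 it gave 157 in KO1 and 565 in KO2, against 8.12% and 18.5% of all genes. Without KO1 replicate 2, the library with the most COL1A1, the KO2 result was another: edgeR called 256 genes of the set higher and 273 lower in KO2 against WT, against 16.8% of all genes, and 49 and 36 of the genes without a WT peak. ZNF154, CNN3, CDH6, ATF3, ZMPSTE24, TPM1, SLIT2 and NRP1 were among those higher, and HMGB1 and SUPT16H among those lower. Also among those higher were FBN2, COL11A1, IGFBP5 and TPM2, which went with the high-collagen libraries. MKI67, CDK1, BUB1 and DNMT3B were also among those lower. Leaving out that library also changed the genes tested, the scaling and the estimate of spread that the 3 groups share in this fit. The cause of the difference was not tested. Both KO2 libraries are high-collagen libraries, and the part of their marker levels in these calls was not tested. All 5 KO libraries stood above all 3 WT libraries for 201 genes of the set, or 7.34%, and below for 230, or 8.40%, against 6.29% and 6.16% of all genes. These shares lay near the background.

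**Figure D5:**
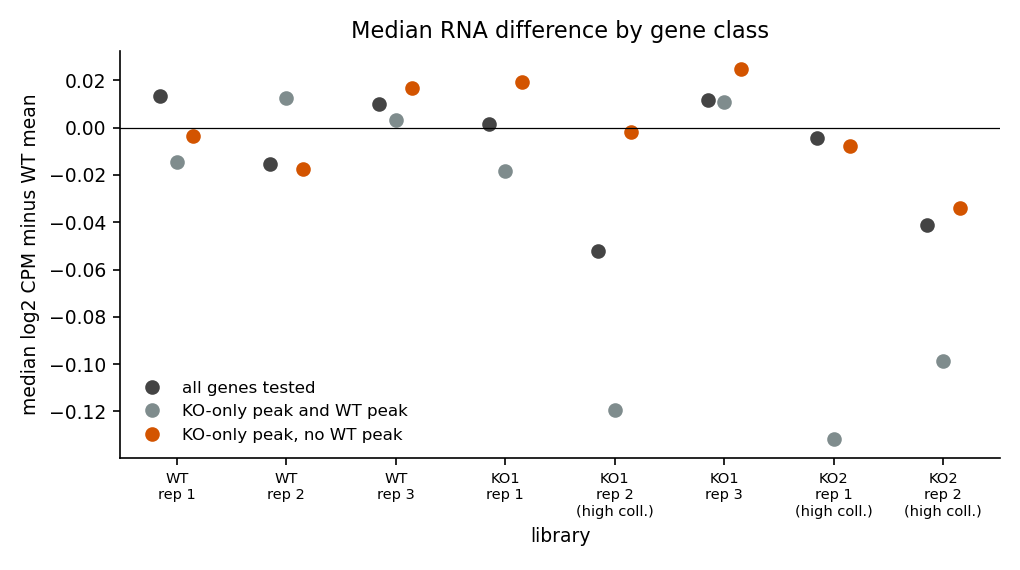
Median over genes of log2 CPM minus the WT mean in each library, for all genes tested and for genes with a KO-only peak, with and without a WT peak. The class with a WT peak is lowest in the 3 high-collagen libraries, at -0.10 to -0.13, and lies within 0.02 of 0 in KO1 replicates 1 and 3.

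DESeq2, run as an alternative, called 78 genes of the set higher and 21 lower in KO, or 3.62% of the set. Over all genes it called 5.23% higher and 1.24% lower, 6.46% in either direction. Of the genes without a WT peak it called 18 higher and 3 lower. Leaving out the 3 high-collagen libraries left KO1 replicates 1 and 3, and no KO2 library, against WT. DESeq2 then called 21 higher and 4 lower in the set, against 0.876% and 0.586% of all genes. With and without those 3 libraries, 15 genes were called. In KO1 alone it called 7 higher and 1 lower (0.698% and 0.21% of all genes) and in KO2 alone 43 and 21 (3.32% and 1.02%). The numbers of called genes depended on single libraries and are given with each left out in the closing part.

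Among the genes without a WT peak, 4 were called by DESeq2 with and without the high-collagen libraries. The 2 comparisons share the WT libraries and KO1 replicates 1 and 3, so they are not independent. ZNF154, a zinc finger gene of chromosome 19, held 2 KO-only peaks and stood at 13.9, 13.5 and 10.1 CPM in WT, 23.5, 53.6 and 22.9 CPM in KO1, and 30.3 and 37.8 CPM in KO2. CNN3, an actin-binding calponin, stood at 266, 242 and 264 CPM in WT, 385, 478 and 332 CPM in KO1, and 472 and 375 CPM in KO2. CDH6, a cadherin, stood at 16.8, 21.4 and 28.0 CPM in WT, 93.0, 70.9 and 49.1 CPM in KO1, and 433 and 87.0 CPM in KO2. For these 3 genes every KO library was above every WT library, and CDH6 had its highest value in KO2 replicate 1. ATF3, a stress-induced transcription factor, had 10.3 ± 1.69 CPM in WT and 30.8 ± 18.5 CPM in KO. Its KO libraries, at 14.8 CPM or more, were also all above its WT libraries, at 12.2 CPM or less. The DESeq2 log2 fold changes were 1.44 for ZNF154 (SE 0.35), 0.68 for CNN3 (SE 0.18), 2.74 for CDH6 (SE 0.69) and 1.59 for ATF3 (SE 0.48), with DESeq2 adjusted p of 0.0027, 0.0057, 0.0043 and 0.025. With edgeR their adjusted p was 0.24 each.

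Others of the 21 went with the high-collagen libraries. In 11 of the 18 higher genes the mean CPM of those libraries was over 2 times that of the other KO libraries, COL11A1, FBN2 and IGFBP5 included. TPM2, a tropomyosin of muscle and stress fibres, stood at 10.9, 2.61 and 14.0 CPM in WT, 29.4, 467 and 15.2 CPM in KO1, and 187 and 257 CPM in KO2. ZMPSTE24, the protease that matures lamin A, did not follow this pattern. It stood at 40.9, 42.9 and 36.8 CPM in WT, 58.1, 77.3 and 57.1 CPM in KO1, and 69.2 and 65.8 CPM in KO2, and every KO library was above every WT library. Its DESeq2 log2 fold change was 0.72 (SE 0.17, adjusted p 0.0016), and without the high-collagen libraries it was 0.51 with an adjusted p of 0.063. The 3 lower genes were PPA1, an inorganic pyrophosphatase, with 127 ± 10.8 CPM in WT against 77.9 ± 18.9 CPM in KO, SSBP2, with 92.6 ± 2.10 and 65.1 ± 8.31 CPM, and the read-through gene STON1-GTF2A1L, with 1.43 ± 0.19 and 0.585 ± 0.156 CPM. Reads of a read-through gene cannot be told apart from those of the genes it joins where they share exons.

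Genes with a WT peak elsewhere held the lowest edgeR p-values of the set. TPM1, an actin-binding tropomyosin, held 1 KO-only peak beside 6 WT peaks and stood at 108, 64.5 and 119 CPM in WT, 877, 820 and 225 CPM in KO1, and 1206 and 787 CPM in KO2. SLIT2, an axon guidance ligand, stood at 193, 168 and 125 CPM in WT, 530, 590 and 302 CPM in KO1, and 370 and 398 CPM in KO2. NRP1, a receptor of semaphorins and VEGF, stood at 32.2, 58.8 and 31.1 CPM in WT, 129, 99.2 and 89.0 CPM in KO1, and 92.0 and 100.5 CPM in KO2. In all 3 genes every KO library exceeded every WT library, low-collagen ones included. Genes named for a low edgeR p were taken only from genes without overlap, so for such genes this was fixed by the choice. The edgeR log2 fold changes were 3.01, 1.44 and 1.32, with an edgeR adjusted p of 0.24 each, and the DESeq2 adjusted p were 8.4e-07, 0.00013 and 0.00030. TMEM230, a vesicle membrane protein, had 47.4 ± 3.70 CPM in WT and 76.9 ± 11.7 CPM in KO.

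On the lower side, LRP4-AS1 stood at 2.15, 1.20 and 1.72 CPM in WT, 0.404, 0.393 and 0.411 CPM in KO1, and 0.448 and 0.793 CPM in KO2. It shares its KO-only peak, with a fold of 2.93, with LRP4, a receptor of Wnt and agrin signalling, which ranged from 95.0 to 142 CPM in WT and from 35.9 to 71.5 CPM in KO. The labels do not say whether reads were counted by strand, so reads of LRP4 and its antisense partner may not be told apart. SGSM2, a regulator of small GTPases, had 196 ± 7.98 CPM in WT against 124 ± 18.6 CPM in KO, and AGO4, an Argonaute protein, 88.4 ± 2.65 and 62.8 ± 7.25 CPM. STX16-NPEPL1, another read-through gene, had 17.6 ± 3.84 and 8.37 ± 2.10 CPM. The WT and KO libraries did not overlap for any of these 5 genes, and the edgeR adjusted p was 0.24 for each. Genes named for a low edgeR p, LRP4-AS1 and AGO4 included, were taken only from genes without overlap. For them the lack of overlap was fixed by the choice.

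The genes of the highest and longest peaks showed no shared direction. SUPT16H stood at 296, 270 and 265 CPM in WT, 255, 167 and 244 CPM in KO1, and 173 and 208 CPM in KO2, with every KO library below WT and an edgeR adjusted p of 0.27. MYH9 stood at 161, 119 and 145 CPM in WT, 448, 394 and 182 CPM in KO1, and 1059 and 402 CPM in KO2, with every KO library above WT. Its DESeq2 adjusted p was 0.011 with all libraries and 0.064 without the 3 high-collagen libraries, and its edgeR adjusted p was 0.24. SF3B4 (71.5 ± 7.58 and 76.1 ± 3.16 CPM), DDB1 (343 ± 11.6 and 340 ± 11.3 CPM), PCBP2 (532 ± 31.3 and 528 ± 36.1 CPM) and ZNF557 (10.3 ± 0.93 and 10.7 ± 1.86 CPM) differed between WT and KO by less than their spread. EEF1A1 stood at 9600, 8308 and 7884 CPM in WT, 7916, 17990 and 7143 CPM in KO1, and 9722 and 13690 CPM in KO2, so its groups overlapped. The genes with the most KO-only peaks were similar. DYNC1H1 had 813 ± 68.0 CPM in WT against 765 ± 83.5 CPM in KO, UBR4 391 ± 36.7 and 387 ± 32.4 CPM, MACF1 453 ± 57.2 and 523 ± 92.8 CPM, and SMARCC1 293 ± 3.20 and 222 ± 51.7 CPM. SMARCC1 was below WT in every KO library, with an edgeR adjusted p of 0.30.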

How the data were processed

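Per the submitters' processing notes, RNA was quantified with Salmon 1.1.0 and tested with DESeq2 1.26.0, and ChIP reads were aligned with Bowtie2 2.4.1 to GRCh38. MACS2 2.2.7.1 made the narrow peak calls, at a q threshold of 0.01, per the file headers. For RNA the authors deposited estimated counts for each gene symbol. The authors' deposited peak lists give the pileup signal, the fold ratio over the control and −log10 q. The authors' deposited test table (log2 fold change, standard error, a Wald score, p-values) was not printed from.

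Peaks were compared by overlap of at least 1 bp and assigned to RefSeq gene spans (GRCh38.p14). Distances count from the peak's edge. Rounded counts were tested with edgeR 4.0.16 (R 4.3.3): filterByExpr, TMM scaling, the quasi-likelihood test, and Benjamini-Hochberg adjustment over 18614 genes, with a threshold of 0.05. DESeq2 1.42.0 was an alternative. CPM values are TMM-scaled, except for genes under the expression filter and the values given for 3 counts, which used library totals alone. KO pooled KO1 and KO2. The labels do not say that replicates came from separate cultures, so the p-values cover only variation among these libraries, which may be technical. The edgeR fits were also run on simulated counts with set fold changes, with no high-collagen libraries within KO. That run thus cannot show how such libraries affect the calls. Genes of low level are less precise at totals of 17.4 to 31.5 M.

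The members, lists and tests were chosen with earlier results of these data known. Genes were named if they held the 10 highest or 8 longest KO-only peaks, the most KO-only peaks without a WT peak (8), the lowest edgeR p without overlap (5 in each direction), the highest RNA without a WT peak (5), or belonged to a fixed list. DESeq2 calls, the 4 genes with the most KO-only peaks and genes whose peak met H3K27me3 were named after their values were seen. Values without the 3 high-collagen libraries, and for each line without a replicate of the other, were also added after seeing the data. Peak sequences were not analysed here.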

Additional observations from a re-analysis of the deposited data

Results flagged for a closer look

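Among 69 named genes checked, 5 had 1 KO library far from the other 4, a distance that chance alone gives in about 1 of 20 groups. CDH6 was 433 CPM in KO2 replicate 1 and 49.1 to 93.0 CPM in the other KO libraries. CLK1, whose KO-only peak was among the highest, was 168 CPM in KO1 replicate 3 and 65.0 to 88.4 CPM in the others. LRP4 was 35.9 CPM in KO1 replicate 2 and 61.8 to 71.5 CPM in the others, and its antisense gene LRP4-AS1 was 0.793 CPM in KO2 replicate 2 and 0.393 to 0.448 CPM in the others. NRP1 was 129 CPM in KO1 replicate 1 and 89.0 to 100.5 CPM in the others.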

How the results depend on the processing

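Counting a WT peak within 1 kb as shared left 2890 KO-only peaks, and requiring a −log10 q of at least 5 left 1297 in 1107 genes. Cover of 50% and peaks joined across 1 kb kept the counts of peaks and genes within 1.5 times. The share of genes with a WT peak elsewhere was 76.7% under the 1 kb rule, 84.7% under the 50% rule, 87.1% for the stricter peaks, 81.6% for joined peaks and 84.8% over genes that passed the expression filter. The share that met H3K27me3 stayed within its counting interval. For RNA, edgeR called 0 genes of the set in the pooled comparison and in KO1 under the settings run, with unadjusted counts in the pooled comparison between 228 and 782 when single libraries were left out. In KO2 it called 0 to 529 with single libraries left out, and 0 to 95 for the mean of both lines, the higher number each time without KO1 replicate 2. Without that library, 16.8% of all genes were called in KO2 and 3.27% for the mean. DESeq2 called 99 in the pooled comparison, 8 in KO1 and 64 in KO2. With the replicate block edgeR called 0 genes in each comparison and the median log2 fold change was -0.05. The replicate numbers were not shown to pair the libraries, since same-numbered libraries had correlations from -0.32 to 0.27. The median log2 fold change was between -0.08 and -0.02 with single libraries left out and 0.012 over genes without a WT peak only. DESeq2 calls in the set ran from 21 (without WT replicate 3) to 317 (without KO1 replicate 3), and were 25 without the 3 high-collagen libraries. Among genes without a WT peak they ran from 5 to 53, and were 7 without those libraries. No share over all genes is given for DESeq2 with single libraries left out, so those counts have no background beside them. Each library moved the number in the set by over 1.5 times, and the causes were not tested. Of the settings compared gene by gene, only DESeq2 with all libraries called named genes in the pooled comparison, 45 of them. None of these had the opposite sign in edgeR with all libraries. With libraries left out edgeR called none, so this check of direction did not cover those settings. Without the 3 high-collagen libraries, the edgeR log2 fold change moved by over its SE for 84 named genes and not for 49. The depth of the peak lists limits what a missing peak shows, as does the 1 list per genotype.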
